A study of Mus musculus with 8 samples.

Results

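The genes described here are 10 Polycomb genes, Ezh2, Ezh1, Eed, Suz12, Jarid2, Bmi1, Ring1, Rnf2, Cbx7 and Cbx8, out of 19937 genes measured on arrays of mouse B-lymphoid cells with and without c-jun. They were chosen by name, as subunits of Polycomb repressive complexes that repress Cdkn2a. Each is represented by the probe set of highest mean signal among those annotated with its symbol alone. All 10 were measured on all 8 arrays, and the 2 questions asked of them were whether their levels differed by genotype and whether they tracked the level of Cdkn2a from array to array.

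The samples were 4 c-jun knockout and 4 wild-type preparations, all labelled as B-lymphoid cells of strain SW129/C57BL/6J, hybridised to Affymetrix MoGene 1.0 ST arrays. The series concerns BCR-ABL driven lymphoid leukaemia, but the sample labels do not say whether these cells carried BCR-ABL, how c-jun was deleted, or the age of any animal. The titles are of 2 kinds: replicates 1 and 2 of each genotype have an RO number, and replicates 3 and 4 have a D or F number, called the D/F scheme here. Within the D/F scheme the letter coincides with the genotype, D for knockout and F for wild type. Nothing states that the samples came from separate cultures or animals, so p-values measure only the spread between these preparations, which may be technical. Values are log2 signals as deposited, a difference is knockout minus wild type on the log2 scale, and in bulk RNA fewer cells of a type and less RNA per cell cannot be told apart.

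Polycomb proteins keep genes silent by modifying the histones around them. Polycomb repressive complex 2 (PRC2) methylates a lysine of histone H3 through the catalytic subunits Ezh2 or Ezh1, which need Eed and Suz12 for activity, and Jarid2 helps to bring the complex to its sites. Polycomb repressive complex 1 (PRC1) ubiquitinates histone H2A through Ring1 or Rnf2 (also called Ring1B), stimulated by Bmi1, while the chromobox proteins Cbx7 and Cbx8 read the methyl mark left by PRC2. The best known target in proliferating cells is the Cdkn2a locus, whose transcripts encode p16Ink4a, an inhibitor of Cdk4 and Cdk6, and p19Arf, which stabilises p53. Bmi1 was found as an oncogene that cooperates with Myc in mouse B-lymphoid tumours, and its loss derepresses Cdkn2a. Jun, encoded by the gene targeted here, is a subunit of the transcription factor AP-1.

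The target of the knockout was checked first. Jun had log2 signals of 6.99, 6.46, 7.02 and 6.97 in knockout samples, against 8.82, 8.84, 10.55 and 8.77 in wild type. All knockout arrays lay below all wild-type arrays, with a difference of -2.38 (SE 0.32, limma adjusted p = 0.106, 2-sided exact permutation p = 0.0286, the smallest that 4 against 4 arrays can give). B-lymphoid markers were at high level throughout, with an average over 9 measured genes of 11.5 to 11.8 in knockout and 11.4 to 11.8 in wild type. Averages for T and NK (8 of 8), myeloid (8 of 8), erythroid (3 of 5) and stromal (6 of 6) markers lay between 6.40 and 7.25 in knockout and between 6.42 and 7.56 in wild type. Single markers, picked after their values were seen, stood above that, among them Lyz2 at 10.63 and 10.64 in knockout replicates 1 and 2 and Klrb1c at 8.93 in knockout replicate 4 and 10.54 in wild-type replicate 3. The arrays also differed in median signal over all probe sets, at 7.01, 6.93, 7.22 and 7.22 in knockout and 7.41, 7.17, 7.42 and 6.99 in wild type. Wild-type replicates 1 and 3 had the highest medians, and they recur in the results below. Array weights, which limma estimates from how far each array departs from the fit, marked a different pair. They were lowest for wild-type replicates 4 (0.19) and 1 (0.30), and between 1.09 and 2.17 for the other arrays, with 1.35 for wild-type replicate 3.

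Cdkn2a itself set the scale for the second question. Its signal was 7.93, 7.83, 8.37 and 7.65 in knockout samples, against 10.97, 8.13, 9.50 and 9.49 in wild type. Wild-type replicates 1, 3 and 4 were above every knockout sample, while wild-type replicate 2 lay within the knockout range. The difference was -1.58 (SE 0.46, limma unadjusted p = 0.00499, adjusted p = 0.878), and the exact permutation p was 0.0571. In other fits of all 8 arrays the unadjusted limma p ran from 0.00436 (naming scheme left out) to 0.0524 (robust priors). The size depended on single wild-type arrays: leaving out replicate 1, the highest, gave -0.99, leaving out replicate 2 gave -2.13, and array weights gave -1.04. Within the D/F arrays alone it was -1.48 (limma adjusted p = 0.00344, in a fit where 79 of 19937 genes passed). Within the RO arrays it was -1.67 (limma adjusted p = 0.397). Each of these fits had 2 arrays per genotype, so its p-values lean on a variance borrowed from all genes. In the D/F arrays the title letter also coincides with genotype. The probe set covers the gene as a whole, and no value separates the p16Ink4a from the p19Arf transcript.

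The promoters of the genes on which the results turn are shown next, because Cdkn2a has a separate start for each of its products, and Suz12 and Bmi1 were the members whose levels varied most with Cdkn2a or between wild-type samples. The windows run from 250 bases before to 50 after the annotated start, from RefSeq on GRCm38.p6, each printed 5′ to 3′ along the strand of the gene. Capitals mark a match, on either strand, to an E2F site (TTTCCCGC, TTTCGCGC, TTTGCCGC or TTTGGCGC) or to the E-box CACGTG, the site bound by Myc and Max. The AP-1 site TGANTCA and the cyclic AMP response element TGACGTCA, to which Jun-containing dimers can bind, were searched as well. The coordinates are chr4:89294570-89294869 (minus strand) for the upstream start of Cdkn2a, which gives the p19Arf transcript, and chr4:89282143-89282442 (minus strand) for the downstream start, which gives p16Ink4a. They are chr11:79992856-79993155 (plus strand) for Suz12 and chr2:18676768-18677067 (plus strand) for Bmi1.
Cdkn2a upstream start: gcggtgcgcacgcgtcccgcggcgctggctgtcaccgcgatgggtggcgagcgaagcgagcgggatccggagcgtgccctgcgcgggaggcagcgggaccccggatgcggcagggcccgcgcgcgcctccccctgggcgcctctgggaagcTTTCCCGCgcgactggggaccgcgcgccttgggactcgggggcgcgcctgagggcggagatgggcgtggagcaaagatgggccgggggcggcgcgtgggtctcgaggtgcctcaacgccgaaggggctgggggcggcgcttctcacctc
Cdkn2a downstream start: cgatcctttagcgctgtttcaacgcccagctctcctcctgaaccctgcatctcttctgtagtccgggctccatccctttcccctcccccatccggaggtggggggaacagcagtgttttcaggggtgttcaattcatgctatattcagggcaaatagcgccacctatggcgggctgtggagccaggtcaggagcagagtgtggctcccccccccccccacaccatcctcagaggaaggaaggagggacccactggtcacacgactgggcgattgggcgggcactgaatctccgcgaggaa
Suz12: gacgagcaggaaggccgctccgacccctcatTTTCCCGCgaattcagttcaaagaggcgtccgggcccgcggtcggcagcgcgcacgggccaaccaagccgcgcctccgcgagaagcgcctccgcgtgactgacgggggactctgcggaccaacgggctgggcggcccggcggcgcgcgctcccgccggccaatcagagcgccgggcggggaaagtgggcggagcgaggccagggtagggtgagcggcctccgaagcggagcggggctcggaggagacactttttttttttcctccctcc
Bmi1: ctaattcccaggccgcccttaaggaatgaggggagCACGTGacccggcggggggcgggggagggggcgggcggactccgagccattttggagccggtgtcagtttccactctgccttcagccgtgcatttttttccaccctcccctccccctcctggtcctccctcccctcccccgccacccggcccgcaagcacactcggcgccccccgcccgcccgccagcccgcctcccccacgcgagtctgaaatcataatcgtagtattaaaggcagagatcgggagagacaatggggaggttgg
The upstream Cdkn2a window and the Suz12 window each held 1 E2F match, which 2.26% of 32851 mouse promoters of the same length contain, and the Bmi1 window held 1 E-box, present in 7.15%. The downstream Cdkn2a window held none of the 4 motifs. CG dinucleotides numbered 45 in the upstream and 12 in the downstream window of Cdkn2a, 41 in Suz12 and 23 in Bmi1, against a median of 7 over all promoters. The E2F words and the E-box all contain CG. The shares over all promoters were not matched for CG content, so they do not show that a match is rare in windows as CG-rich. All 10 members had a promoter in the table. Of those not printed, Ezh2 held 1 E2F match and Cbx8 held 1 cyclic AMP response element and 1 E-box, and the windows of Ezh1, Eed, Jarid2, Ring1, Rnf2 and Cbx7 held none. The AP-1 site, found in 7.81% of all promoters, was in none of the windows of the 10 members or of Cdkn2a, which says only that these letters do not occur there.

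No Polycomb gene was called different by genotype, in a comparison where few genes of any kind were. At a limma adjusted p of 0.05 over all genes 0 of 10 passed, where 0.00502% of all genes did, and 0 of 10 had an unadjusted p under 0.05, against 2.25% of all genes (1.72% lower and 0.537% higher in knockout). With shares this low, a count of 0 among 10 genes does not set the members apart from other genes. In none of the 10 did the knockout arrays lie entirely below or above the wild-type arrays, which occurred in 1.03% and 0.266% of all genes. The signal was lower in knockout on average for 6 members and higher for 4, and their median difference was -0.049, beside -0.11 over all genes. That general shift depends on signal level. With genes divided into 4 equal bins by mean signal it was -0.15, -0.18, -0.097 and 0.025 from the dimmest to the brightest bin, and 4 members lay in bin 3 and 6 in the brightest. After each array was centred on its median the members' median difference was 0.12, beside 0.059 over all genes.

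**Figure D1:**
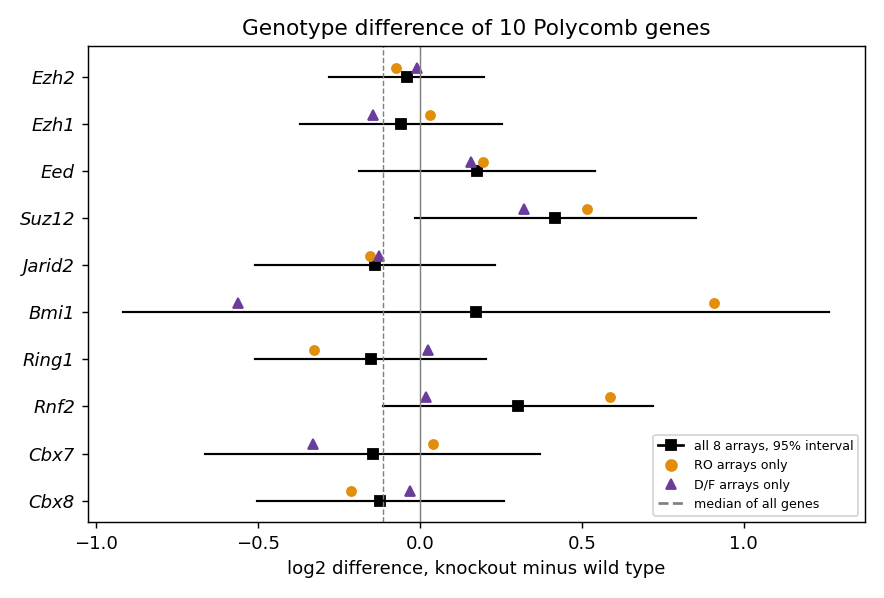
Log2 difference, knockout minus wild type, for each of the 10 Polycomb genes: the square is the limma estimate over all 8 arrays with its 95% interval, the circle and triangle are the differences within the RO and the D/F arrays, and the dashed line is the median of all genes. Every interval includes 0, from the narrow one of Ezh2 (-0.28 to 0.20) to the wide one of Bmi1 (-0.92 to 1.26).

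Among the catalytic subunits of PRC2, Ezh2 was steady. It gave 12.74, 12.90, 12.66 and 12.68 in knockout samples, against 12.84, 12.95, 12.59 and 12.77 in wild type. The groups overlapped fully, with all 8 arrays within 0.36 of each other. The difference was -0.041 (SE 0.11, 95% interval -0.28 to 0.20, limma adjusted p = 0.919).

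Ezh1, the alternative catalytic subunit, which predominates in resting cells, had 8.91, 9.07, 8.85 and 8.82 in knockout samples, against 8.95, 8.96, 8.92 and 9.04 in wild type. Its range over the 8 arrays, 0.25, was the narrowest of the 10 members, and 0.963% of all genes had a range no wider. Knockout replicate 2 was the highest of all 8 arrays and knockout replicate 4 the lowest. The difference was -0.057 (SE 0.14, interval -0.37 to 0.25, limma adjusted p = 0.913).

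Of the core partners, Eed binds the methyl mark and stimulates the enzyme. Its signal was 10.02, 10.59, 10.41 and 10.26 in knockout samples, against 10.06, 10.16, 9.96 and 10.40 in wild type. The highest array was knockout replicate 2 and the lowest wild-type replicate 3, with overlap between them, and the difference was 0.18 (SE 0.17, interval -0.19 to 0.54, limma adjusted p = 0.878). With knockout replicate 2 left out it was 0.059 and with knockout replicate 1 left out 0.29, while leaving out single wild-type arrays gave values from 0.093 (replicate 3) to 0.27 (replicate 4). It was 0.35 with arrays centred on their medians. Eed has a second, dim probe set, with signals of 6.28, 6.38, 6.30 and 5.89 in knockout and 6.90, 6.30, 6.76 and 6.14 in wild type. That probe set gave a difference of the opposite sign, -0.31 (SE 0.21, limma adjusted p = 0.881), and the size of a difference at so low a signal is uncertain.

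Suz12, without which PRC2 is unstable, came closest to a difference among the 10. Its signals were 12.12, 12.38, 12.19 and 12.03 in knockout samples, against 11.35, 12.12, 11.42 and 12.15 in wild type. Wild-type replicates 1 and 3 were the 2 low arrays, below every other array, while wild-type replicates 2 and 4 lay among the knockout values. The difference was 0.42 (SE 0.20, interval -0.02 to 0.85, limma unadjusted p = 0.0577, adjusted p = 0.878, exact permutation p = 0.2). With arrays centred on their medians the difference was 0.59, and with quantile normalization 0.38. Leaving out wild-type replicate 1 gave 0.24, and leaving out replicates 1 and 3 together, a choice made after seeing the data, gave 0.042. Those are the arrays of highest median and also the lowest Suz12 arrays, so the value without them is smaller by construction. Suz12 also ran against the array median over all 8 arrays (Pearson r = -0.88, permutation p = 0.00295; Spearman rho = -0.81, permutation p = 0.0218), and r was -0.77 without knockout replicate 2 and wild-type replicate 3, the arrays farthest in that measure. Of all genes, 51.3% had an unadjusted permutation p under 0.05 for this relation. Beyond these scalings, the part of array-wide signal in the Suz12 difference was not tested.

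Jarid2, an accessory subunit without catalytic activity, had 9.38, 9.11, 9.17 and 9.65 in knockout samples, against 9.39, 9.40, 9.30 and 9.77 in wild type. Replicate 4 was the highest array in each genotype, and the numbering of replicates carries no meaning across genotypes. The difference was -0.14 (SE 0.17, interval -0.51 to 0.23, limma adjusted p = 0.878).

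**Figure D2:**
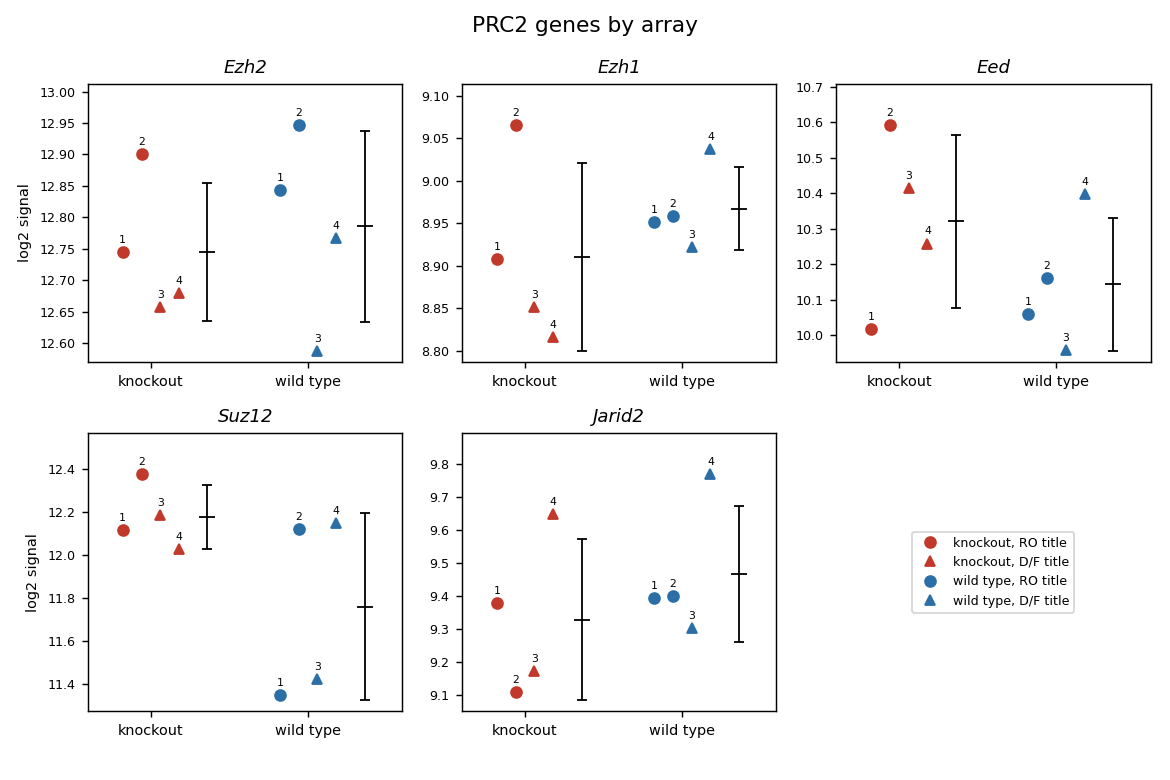
Log2 signal of the 5 PRC2 genes in knockout (red, left) and wild-type (blue, right) samples: circles are RO and triangles D/F titles, the number above a point is the replicate, and the black bar is the mean with its SD (n = 4 per genotype), on a separate axis for each gene. The groups overlap in every panel, and wild-type replicates 1 and 3 stand low in the Suz12 panel at 11.35 and 11.42.

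Of the PRC1 genes, Bmi1 was the most variable. It gave 10.11, 10.49, 10.66 and 10.52 in knockout samples, against 8.53, 10.25, 9.98 and 12.31 in wild type. Both extremes were wild-type arrays, replicate 1 at the bottom and replicate 4 at the top, and all knockout arrays lay between them. The wild-type arrays spanned 3.78 log2 units and the knockout arrays 0.54. A range of at least 3.78 over the 4 wild-type arrays occurred in 0.14% of all genes, and over the 8 arrays in 0.351%.

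The means of Bmi1 were 10.44 ± 0.23 in knockout and 10.27 ± 1.56 in wild type (SD, n = 4 each). The difference of 0.17 had an interval from -0.92 to 1.26 (SE 0.50, limma adjusted p = 0.924), the widest of the 10 members. It was 0.91 within the RO arrays and -0.56 within the D/F arrays, and the interaction between genotype and naming scheme was -1.47 (SE 0.93, limma adjusted p = 0.716). Leaving out wild-type replicate 1 turned the genotype difference to -0.32, and leaving out wild-type replicate 4 raised it to 0.79.

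Commd3, the gene just before Bmi1 on chromosome 2, was looked at after the Bmi1 values were seen. It encodes a COMM-domain protein. Commd3 gave 11.89, 11.80, 11.83 and 11.47 in knockout samples, against 10.58, 11.64, 11.50 and 12.27 in wild type. As for Bmi1, wild-type replicate 1 was the lowest of the 8 arrays and wild-type replicate 4 the highest. The correlation with Bmi1 was r = 0.90 (permutation p = 0.0161, adjusted p = 0.257 over all genes, rho = 0.60 with permutation p = 0.132). Without wild-type replicates 1 and 4, the arrays farthest from the median Bmi1 level, r was 0.22. The relation over 8 arrays thus depends on those 2, and leaving out the extremes of a gene tends to shrink r by construction. The other neighbours had r of 0.53 (Dnajc1), -0.60 (Spag6) and 0.57 (Pip4k2a).

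Ring1 and Rnf2 encode the alternative catalytic subunits of PRC1, and in the values as deposited their levels moved in opposite directions from array to array. Rnf2 had 10.38, 10.62, 10.09 and 10.17 in knockout samples, against 9.60, 10.23, 9.91 and 10.31 in wild type. Wild-type replicates 1 and 3 were again the 2 lowest of the 8 arrays. The difference was 0.30 (SE 0.19, interval -0.11 to 0.72, limma adjusted p = 0.878), with 0.59 within the RO arrays and 0.02 within the D/F arrays. The interaction was -0.57 (SE 0.35, limma adjusted p = 0.716), and the genotype difference was 0.48 with arrays centred on their medians and 0.28 with quantile normalization. Leaving out knockout replicate 2 gave 0.20, leaving out wild-type replicate 1 gave 0.12, and leaving out wild-type replicates 1 and 3, the lowest Rnf2 arrays, gave 0.047.

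Ring1 had 8.47, 8.39, 8.58 and 8.80 in knockout samples, against 8.89, 8.63, 8.81 and 8.53 in wild type. Wild-type replicates 1 and 3 were here the 2 highest arrays, level with knockout replicate 4. The difference was -0.15 (SE 0.16, interval -0.51 to 0.21, limma adjusted p = 0.878). Ring1 followed the array median (r = 0.92, permutation p = 0.00263; rho = 0.93, permutation p = 0.00223), and r was 0.89 without the 2 arrays farthest in it. Rnf2 ran against it (r = -0.93, permutation p = 0.000198; rho = -0.93, permutation p = 0.00223), and r was then -0.92. With arrays centred on their medians the genotype difference of Ring1 was 0.021. Beyond the scalings given, the part of array-wide signal in either gene was not tested.

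The chromobox genes are the readers of the complex. Cbx7, the form that represses Cdkn2a in many dividing cells, had 9.03, 7.90, 8.48 and 8.96 in knockout samples, against 8.34, 8.51, 9.02 and 9.09 in wild type. Knockout replicate 2 was the low array, and the knockout values spread over 1.12 log2 units, beside 0.75 in wild type. The difference was -0.14 (SE 0.24, interval -0.66 to 0.37, limma adjusted p = 0.883), and without knockout replicate 2 it was 0.043.

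Cbx8 had 8.28, 8.33, 8.46 and 8.50 in knockout samples, against 8.80, 8.24, 8.69 and 8.33 in wild type. Wild-type replicates 1 and 3 were the highest arrays and wild-type replicate 2 the lowest, so the knockout values fell inside the wild-type range. The difference was -0.12 (SE 0.17, interval -0.50 to 0.26, limma adjusted p = 0.878). Its correlation with the array median was r = 0.86 (permutation p = 0.00724; rho = 0.76, permutation p = 0.0368), and 0.84 without the 2 arrays farthest in it.

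**Figure D3:**
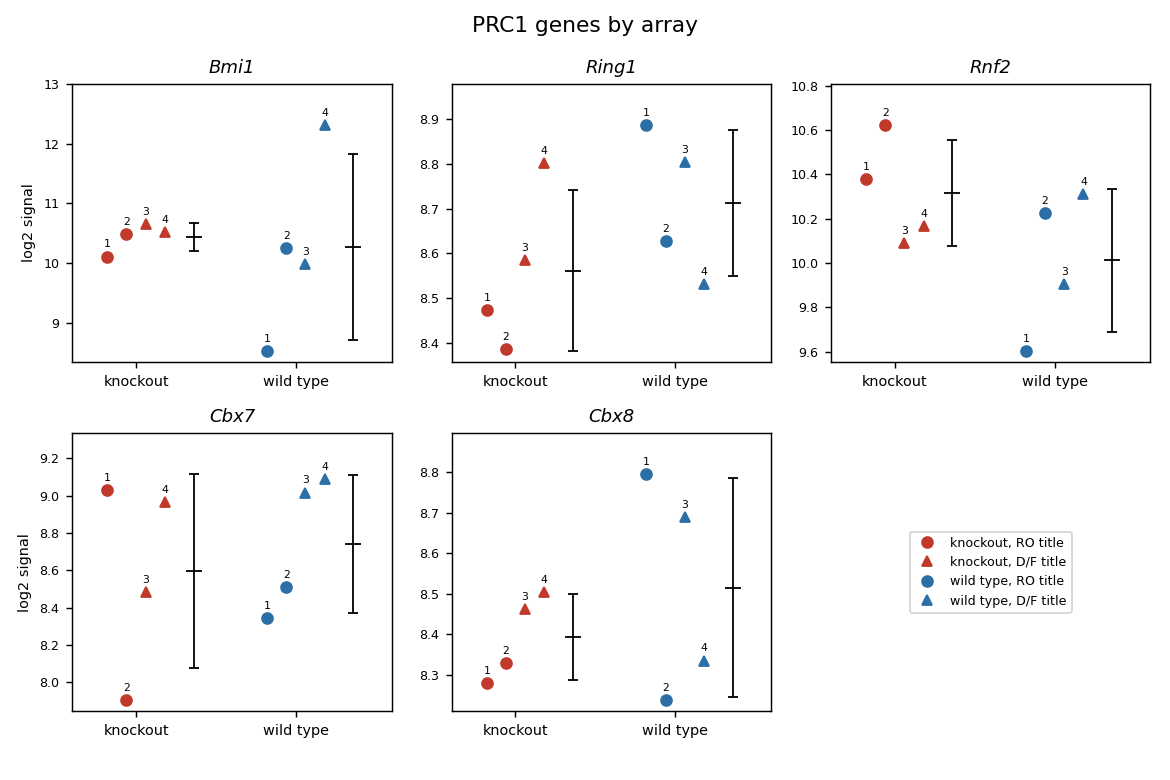
Log2 signal of the 5 PRC1 genes in knockout (red, left) and wild-type (blue, right) samples: circles are RO and triangles D/F titles, the number above a point is the replicate, and the black bar is the mean with its SD (n = 4 per genotype), on a separate axis for each gene. Bmi1 spreads from 8.53 to 12.31 across wild-type samples and stays between 10.11 and 10.66 in knockout, and wild-type replicates 1 and 3 are low for Rnf2 and high for Ring1 and Cbx8.

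The naming scheme of the titles, which the labels do not call a batch, was tested in the same limma fit as D/F minus RO. None of the members passed (0 of 10, beside 0.0201% of all genes at an adjusted p of 0.05 and 3.12% at an unadjusted p of 0.05). The lowest p-values belonged to Bmi1, with a difference of 1.02 (SE 0.50), Cbx7, with 0.44 (SE 0.24), and Ezh2, with -0.19 (SE 0.11). Single arrays moved these: Bmi1 was at 0.41 with wild-type replicate 4 left out and 0.53 with replicate 1 left out, and Cbx7 ran from 0.25 without knockout replicate 2 to 0.70 without knockout replicate 1. The interaction of genotype with naming scheme was past the adjusted threshold in 0 of 10 members and 0.0301% of all genes, and past an unadjusted p of 0.05 in 0 of 10 members and 5.38% of all genes.

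Whether the members varied together depended on the scaling of the arrays. In the values as deposited, 21 of 45 pairwise correlations were positive, the median r was -0.06, and r ranged from -0.90 to 0.90. With arrays centred on their medians, which subtracts the same number from both genes of a pair on each array, 44 of 45 were positive with a median r of 0.56, the exception being Cbx7 with Cbx8 (-0.08). Pairs of other genes were not counted under either scaling, so these counts do not set the members apart from other genes. As deposited, each pair of members was given a permutation p over the 40320 pairings of 8 arrays, adjusted over all genes correlated with either member, with the larger value kept. By that measure 3 of 45 pairs passed, all among Suz12, Ring1 and Rnf2. Relations of this strength were common, since 20.1% of all genes passed with Suz12, 21.5% with Ring1 and 33.1% with Rnf2.

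Suz12 was positively correlated with Rnf2 (r = 0.90, adjusted permutation p = 0.0347; rho = 0.69), a PRC2 core subunit with a PRC1 enzyme. Without the 2 arrays farthest from the median Suz12 level r was 0.74. Ring1 was negatively correlated with Suz12 (r = -0.85, adjusted permutation p = 0.0335; rho = -0.83) and with Rnf2 (r = -0.90, adjusted permutation p = 0.0302; rho = -0.93). Without the 2 arrays farthest in the Suz12 level, r was -0.81 for Suz12 with Ring1, and without those farthest in the Ring1 level it was -0.77 for Ring1 with Rnf2.

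Both negative pairs turned positive after median centring, where r was 0.44 for Suz12 with Ring1 and 0.41 for Ring1 with Rnf2. It was 0.96 for Suz12 with Rnf2, and 0.92 for Suz12 with Eed, which had been 0.74 as deposited. Among the 3 pairs that passed, Suz12 with Rnf2 was the pair with the same sign under both scalings. Centring subtracts the same number from both genes of a pair, and nearly all pairs of members were positive after it. A pair already positive would thus be likely to keep its sign, and a negative pair to lose it. The kept sign therefore does not set Suz12 with Rnf2 apart.

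The relation of each member to Cdkn2a was then examined over the 8 arrays, as Polycomb subunits are known repressors of that gene. Of the 10 members, 5 correlated negatively and 5 positively, with a median r of -0.0072, beside 0.36 over all genes. With arrays centred on their medians 9 were negative and 1, Cbx8, positive, with a median r of -0.30 beside -0.16 over all genes. After adjustment over all genes 0 of 10 passed, as did 0.0% of all genes. At an unadjusted permutation p of 0.05, 3 of 10 were past the threshold, where 11.0% of all genes were: 2 negative (3.08% of all genes) and 1 positive (7.9% of all genes). Of the 9967 genes above the median signal, where all 10 members lie, 12.9% were past it, 589 negative and 693 positive. Over all genes there were 615 negative and 1574 positive, so the balance of signs differed with signal level. The median r of the brighter genes was not computed, and the medians over all genes thus do not set the members apart from genes as bright.

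The negative ones were Suz12 (r = -0.79, permutation p = 0.0295) and Rnf2 (r = -0.78, permutation p = 0.0210), and the positive one was Cbx8 (r = 0.73, permutation p = 0.0357), each with an adjusted p of 0.424. By rank the relations were weaker, with Spearman rho of -0.43 for Suz12 (permutation p = 0.299), -0.67 for Rnf2 (p = 0.0831) and 0.52 for Cbx8 (p = 0.197), and 0 of 10 members were past the threshold, beside 4.72% of all genes. The 2 arrays farthest from the median Cdkn2a level were wild-type replicates 1 and 3, and without them r was -0.0055 for Suz12, -0.14 for Rnf2 and -0.15 for Cbx8. Those 2 arrays also have the highest median signal, and leaving out the extremes of Cdkn2a tends to shrink r by construction. Wild-type replicate 4 was nearly as far from the median Cdkn2a level, at 9.49 beside 9.50 in replicate 3. Leaving out only replicate 1 gave r of -0.58 for Suz12, -0.49 for Rnf2 and 0.43 for Cbx8. Without only replicate 3 it was -0.82, -0.76 and 0.71, and without only replicate 4 it was -0.89, -0.88 and 0.85. Leaving out wild-type replicate 1 alone put 0 of 10 members past the threshold, beside 2.69% of all genes. The array median itself had r = 0.58 with Cdkn2a (permutation p = 0.124).

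Groups of 4 are too small for a correlation within each genotype. With the genotype means removed, r was -0.65 for Suz12 (permutation p = 0.304), -0.68 for Rnf2 (p = 0.132) and 0.77 for Cbx8 (p = 0.0747), so 0 of 10 passed, beside 2.44% of all genes. With arrays centred on their medians, it was -0.64 for Suz12 (permutation p = 0.0819), -0.61 for Rnf2 (p = 0.107) and 0.31 for Cbx8 (p = 0.456), again 0 of 10, beside 5.17% of all genes. After quantile normalization, 3 of 10 were past the threshold, beside 10.4% of all genes. Sample by sample, wild-type replicate 1 had the highest Cdkn2a of the 8 arrays together with the lowest Suz12, Rnf2 and Bmi1. Wild-type replicate 4, with nearly the same Cdkn2a as wild-type replicate 3 (9.49 and 9.50), had Suz12 and Rnf2 within the knockout range.

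**Figure D4:**
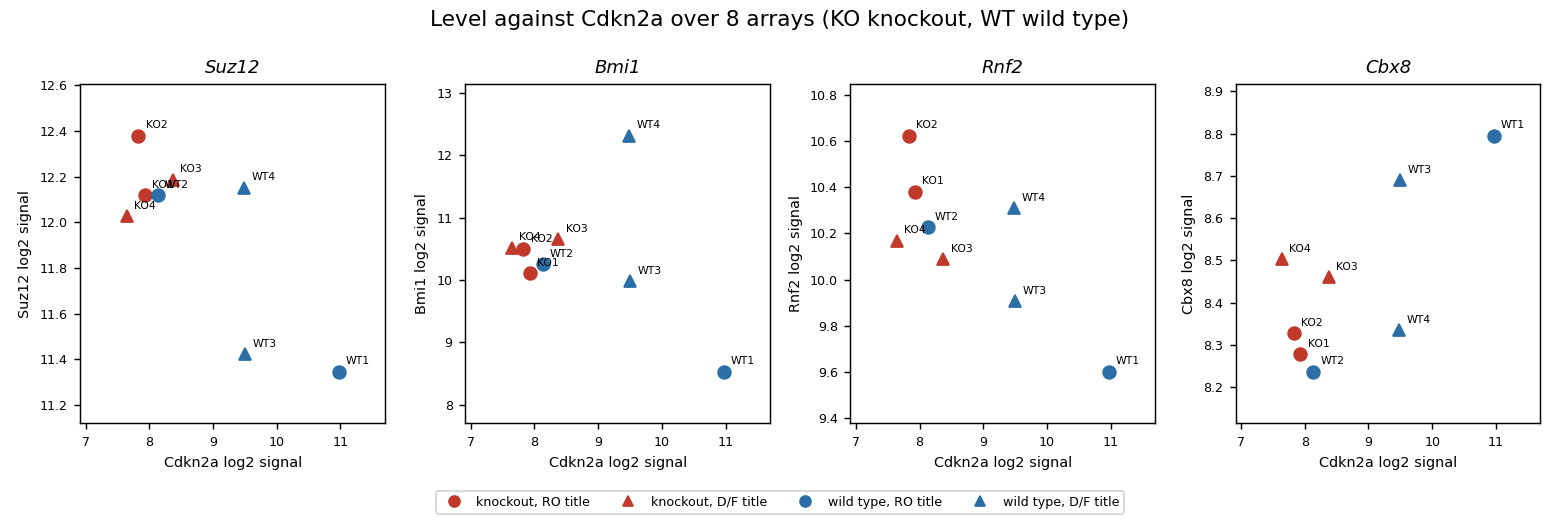
Log2 signal of Suz12, Bmi1, Rnf2 and Cbx8 (vertical axes) against the log2 signal of Cdkn2a (horizontal axes) on the 8 arrays, red for knockout (KO) and blue for wild type (WT), circles for RO and triangles for D/F titles. The knockout arrays cluster at a Cdkn2a signal of 7.65 to 8.37, and WT1, WT3 and WT4 lie to the right of that range.

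Bmi1 is the member with the closest described link to Cdkn2a, and here its relation had no stable sign. Over the 8 arrays r was -0.36 (permutation p = 0.356, rho = -0.38). Without wild-type replicate 4, which combined the highest Bmi1 with a Cdkn2a signal of 9.49, r was -0.91 (permutation p = 0.0190). Without wild-type replicate 1, r was 0.45, and without wild-type replicates 1 and 3 it was 0.91 (permutation p = 0.0653).

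The remaining members showed no relation past the unadjusted threshold. Ring1 had r = 0.57 (permutation p = 0.139), which became -0.22 with arrays centred on their medians. Eed had r = -0.38, Ezh1 0.22, Jarid2 0.16, Ezh2 -0.045 and Cbx7 0.030. With 8 arrays a permutation p can be as low as 2.48e-05.

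**Figure D5:**
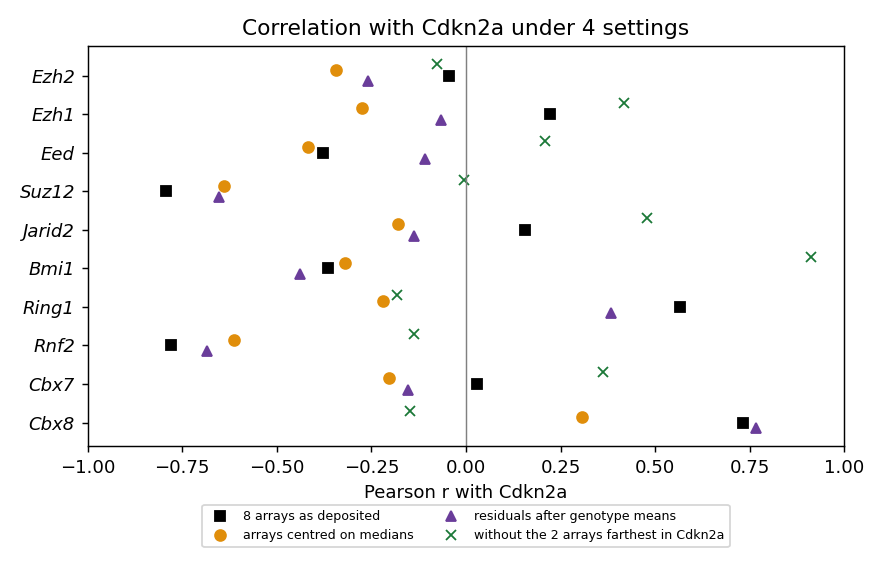
Pearson r with Cdkn2a (horizontal axis) for each of the 10 Polycomb genes under 4 settings: the values as deposited over 8 arrays (square), arrays centred on their medians (circle), residuals after genotype means (triangle), and without the 2 arrays farthest in Cdkn2a (cross). Suz12 and Rnf2 stand at -0.0055 and -0.14 without those arrays, against -0.79 and -0.78 over all 8, and Bmi1 stands at 0.91, against -0.36.

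Other subunits of the complexes, taken from lists, gave 0 calls after adjustment. Of all genes 0.00502% were called, a share too low for a count of 0 to say anything about the listed genes. Of 8 further PRC2 subunits, 3 were lower and 5 higher in knockout, with a median difference of 0.062 beside -0.11 over all genes. Epop, an elongin-linked accessory factor, differed by -0.48 (SE 0.18), and Mtf2, which guides PRC2 to CG-rich DNA, by 0.41 (SE 0.18). Phf1, a relative of Mtf2, differed by -0.34 (SE 0.16), with 8.16, 7.80, 8.03 and 8.11 in knockout samples, all below the 8.51, 8.40, 8.27 and 8.28 of wild type. Among the 8, 1 lower and 1 higher gene had an unadjusted limma p under 0.05, beside 1.72% and 0.537% of all genes. Knockout arrays entirely below wild-type arrays, as for Phf1, occurred in 1.03% of all genes. All 3 named genes, picked for the smallest p-values of the list, had a limma adjusted p of 0.878.

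Of 24 measured genes among 26 further PRC1 subunits, 12 were lower and 12 higher, with a median of -0.012. The smallest p-values were those of E2f6, a repressor that recruits a PRC1 variant, at -0.90 (SE 0.47, limma adjusted p = 0.878), Skp1, a subunit shared with ubiquitin ligases, at 0.52 (SE 0.30), and Pcgf6, a relative of Bmi1, at 0.87 (SE 0.53). E2f6 was low in knockout replicate 3, at 6.15 where the other knockout samples were 8.98, 8.35 and 8.58. Pcgf6 was low in wild-type replicate 3, at 6.66 where the other wild-type samples were 8.66, 9.52 and 9.88. Rybp, which links Rnf2 into variant PRC1, had the highest r with Cdkn2a of the listed PRC1 genes, 0.91 (permutation p = 0.00322, adjusted p = 0.424). It was singled out after its value was seen. At an unadjusted permutation p of 0.05, 1 of the 24 was negative and 2 were positive, beside 3.08% and 7.9% of all genes.

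Opponents of Polycomb, which remove its marks or remodel its chromatin, were evenly divided as well. Of 16 measured among 17 listed, 8 were lower and 8 higher, with a median of 0.00018. Kmt2b, a histone methyltransferase of the activating kind, differed by -0.23 (SE 0.14, limma adjusted p = 0.878). Its groups did not overlap, at 9.34 to 9.50 in knockout and 9.56 to 9.87 in wild type. Knockout arrays lay entirely below wild-type arrays in 1.03% of all genes. The remodeller subunits Smarcb1 and Smarca4 differed by -0.21 (SE 0.14) and -0.14 (SE 0.12).

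At the Ink4-Arf locus all 4 listed genes were lower in knockout on average, as were 72.0% of all genes. After adjustment 0 of 4 passed, beside 0.00502% of all genes. Besides Cdkn2a, Dmrta1 differed by -0.41 (SE 0.22), Mtap by -0.28 (SE 0.18) and Cdkn2b, which encodes p15Ink4b, by -0.15 (SE 0.39), each with a limma adjusted p of 0.878 or 0.914. Cdkn2b, added after its values were seen because it shares the Polycomb domain of Cdkn2a, had 7.83, 7.28, 7.96 and 9.33 in knockout samples, against 8.97, 7.67, 8.58 and 7.80 in wild type. Knockout replicate 4 was its highest array and the lowest array of Cdkn2a, and the r of the 2 genes was 0.35 (permutation p = 0.396). The r with Cdkn2a was 0.79 for Dmrta1 (permutation p = 0.0190) and 0.74 for Mtap (permutation p = 0.0328), each with an adjusted p of 0.424. Of all genes, 7.9% were positive past an unadjusted permutation p of 0.05. The median r of these 3 genes was 0.74, and 0.44 with arrays centred on their medians. Of 28 other described regulators of Cdkn2a, 20 were lower and 8 higher with a median of -0.087, beside -0.11 over all genes. After Jun the smallest p-values belonged to the repressor Tbx2 (-0.30, SE 0.20) and to E2f3 (0.23, SE 0.16).

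Developmental genes were listed because Polycomb silences them in most somatic cells. Of 57 measured among 60 Hox and other developmental targets, 51 were lower and 6 higher in knockout, with a median of -0.17. The limma adjusted threshold, passed by 0.00502% of all genes, was passed by 0 of these 57. Across all genes 72.0% had a difference below 0, and after arrays were centred on their medians the median of the list was -0.00015. Their average signal was 6.86, 6.79, 7.04 and 7.02 in knockout and 7.32, 6.92, 7.28 and 6.79 in wild type, highest in the 2 arrays of highest median. The smallest p-values were those of Pax6 (-0.43, SE 0.20), Lhx2 (0.61, SE 0.30) and Nkx2-1 (-0.32, SE 0.18). Lhx2 was bright, at 10.46, 11.40, 9.85 and 9.84 in knockout samples, against 9.71, 9.38, 9.78 and 10.22 in wild type, and its groups overlapped.

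Replication genes were listed because E2F factors drive several of them and Ezh2, Eed and Suz12 alike. Of 28 measured among 30 S phase genes, 7 were lower and 21 higher in knockout with a median of 0.079. The limma adjusted threshold, passed by 0.00502% of all genes, was passed by 0 of these 28. Their average signal was 11.45, 11.64, 11.55 and 11.42 in knockout and 11.19, 11.55, 11.42 and 11.53 in wild type, lowest in wild-type replicate 1, where Suz12 and Rnf2 were lowest too. The part of proliferation in the Suz12 and Rnf2 values was not tested. The smallest p-values were those of Prim1 (0.33, SE 0.18), Ccne2 (0.54, SE 0.31) and Gins1 (0.27, SE 0.17). Ccne2, a cyclin of the start of S phase, was 9.44 and 9.55 in wild-type replicates 1 and 3 and between 10.62 and 10.98 in all other arrays.

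Finally, the genes most like 3 of these genes over the 8 arrays were listed from genes brighter than the median gene. For Ezh2 they were Mtss1 (r = 0.94), Pnp (0.93) and Rnasek (0.93). For Bmi1 they were Nbn (0.97), Zdhhc13 (0.97) and Topbp1 (0.97), each lowest in wild-type replicate 1 and highest in wild-type replicate 4. For Cdkn2a they were Fcsk (0.98), Zgpat (0.97) and Ckap4 (0.97), each highest in wild-type replicate 1. These r values are the top of about as many comparisons as there are genes and are given as a description.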

How the data were processed

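RNA from 8 mouse B-lymphoid samples, 200 ng each, was labelled with the Affymetrix whole-transcript kit, per the labels' protocols. The authors deposited log2 values for 34760 probe sets. MAS5 is the tool in the submitters' processing notes. It was built for arrays with mismatch probes, which this type lacks, and its version, its settings and the probe annotation were not given in the sources used here. Back on the linear scale, the mean with 2% trimmed at each end was 500 on every array, which leaves the medians free to differ. No detection calls were used, and precision is limited by having 8 arrays.

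Of the probe sets, 21640 had 1 symbol in the platform annotation, 1321 several and 11799 none. The brightest single-symbol probe set stood for each of 19937 genes. Genotype and naming scheme were fitted to the deposited log2 values with limma 3.58.1 in R 4.3.3 (lmFit, eBayes with trend), with Benjamini-Hochberg adjustment over all genes at 0.05 and intervals of 95%. Genotype was also tested 2-sided over the 70 assignments of arrays. Correlations with Cdkn2a were tested 2-sided over all 40320 pairings for every gene (576 within genotype) and adjusted over all genes. The fits were tested on simulated data.

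The members and gene lists were chosen with earlier results of these data known. From each list other than the members and cell type markers, the 3 genes of smallest limma p are named, and Commd3, Rybp, Cdkn2b, Lyz2 and Klrb1c were chosen after their values were seen. Replicate numbers follow the order of deposit. Alternatives changed the scaling, probe set choice, moderation, array weights, covariates and samples. Promoters came from RefSeq tables of GRCm38.p6.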

Additional observations from a re-analysis of the deposited data

Results flagged for a closer look

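No Polycomb member had an array set apart from the rest of its genotype by the gap test used (Dixon's ratio of the gap to the range, at 95%). Among the genes given with values in every sample, Jun was marked in each genotype. The lowest knockout value, 6.46 in replicate 2, stood apart from the other knockout samples, with a gap of 0.92 of the group's range. The highest wild-type value, 10.55 in replicate 3, stood apart from the other wild-type samples, with a gap of 0.96 of the range. Chance marks about 1 in 20 groups.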

How the results depend on the processing

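After adjustment over all genes 0 of 10 members passed under every setting run, for genotype, naming scheme, their interaction and the relation to Cdkn2a. Few genes of any kind passed: in the main fits 0.00502% for genotype, 0.0201% for naming scheme and 0.0301% for the interaction. The genotype fits called at most 79 of 19937 genes, in the D/F arrays alone, and the relation called 0 genes under every setting. A count of 0 among 10 therefore does not set the members apart from other genes. At an unadjusted limma p of 0.05 the genotype count was 1 with robust priors (2.15% of all genes), 1 with array weights (16.1%) and 1 without wild-type replicates 1 and 3 (2.23%, a choice made after seeing the data). It was 0 to 2 with each array left out, the 2 arising without wild-type replicate 4, where 24.4% of all genes were past that p. The naming-scheme count was 1 without wild-type replicates 1 and 3 (6.06% of all genes) and 0 to 1 with each array left out. The interaction count was 0 to 2, the 2 without wild-type replicate 2 (11.7%). The unadjusted count for the relation to Cdkn2a, 3 as deposited, was 0 by Spearman rho, 0 with arrays centred on their medians, 0 for residuals after genotype means and 0 without the 2 arrays farthest in Cdkn2a (2.33% of all genes). For residuals after genotype and naming scheme it was also 0, but the 16 pairings there cannot give a p below 0.0625, so that count says nothing. With each array left out it was 0 to 4, the 4 arising without wild-type replicate 4 (26.2% of all genes) and without knockout replicate 4 (3192 of 19936 genes). With arrays centred on their medians the genotype difference changed sign for Ezh2 (0.13), Ezh1 (0.11), Jarid2 (0.033), Ring1 (0.021), Cbx7 (0.027) and Cbx8 (0.050). It also changed sign for Ezh1 (0.032) and Cbx7 (0.041) in the RO arrays, Bmi1 (-0.56) and Ring1 (0.025) in the D/F arrays, Eed (-0.068) with probe sets averaged, and Bmi1 (-0.84) and Cbx8 (0.11) without wild-type replicates 1 and 3. With each array left out it ran from -0.32 to 0.79 for Bmi1, -0.41 to 0.043 for Cbx7 and -0.22 to 0.0083 for Cbx8. The sign of r with Cdkn2a changed under quantile normalization for Ezh2 (0.15) and Cbx7 (-0.15), and under median centring for Ezh1 (-0.27), Jarid2 (-0.18), Ring1 (-0.22) and Cbx7 (-0.20). It changed for residuals after genotype means in Ezh1 (-0.065), Jarid2 (-0.14) and Cbx7 (-0.15), and after genotype and naming scheme in Ezh1 (-0.060), Jarid2 (-0.16) and Cbx7 (-0.20). It changed for Eed (0.54) with probe sets averaged, and without the 2 arrays farthest in Cdkn2a for Eed (0.21), Bmi1 (0.91), Ring1 (-0.18) and Cbx8 (-0.15). With each array left out r ran from -0.40 to 0.14 for Ezh2, -0.0014 to 0.55 for Ezh1, -0.033 to 0.40 for Jarid2, -0.91 to 0.45 for Bmi1 and -0.31 to 0.46 for Cbx7. The cause was not tested. No paired analysis was possible because the labels give no replicate numbers.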
